A study of Nematostella vectensis with 96 samples.

Results

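Gene expression was compared between subjective day and subjective night in adults of *Nematostella vectensis*, a burrowing sea anemone, that were kept in constant darkness (dark:dark, DD). Each library came from the whole body of 1 animal. Of the 96 libraries of the series, 24 came from DD, with 4 animals (replicates A to D) at each of 6 times. Times are given as Zeitgeber time (ZT), which counts hours from lights on in the light:dark conditions run beside DD. Libraries of ZT2, ZT6 and ZT10 form subjective day, and those of ZT14, ZT18 and ZT22 form subjective night. Libraries with fewer than 100000 counts were left out, which removed DD ZT6 replicate D and DD ZT22 replicate C and left 22 libraries, 11 of subjective day and 11 of subjective night. The DD animals lived without light for 1 month and were fed and given new water in the dark. Animals under red, green or blue light:dark cycles for the same month, sampled at the same times, are used only for comparison, and all animals of the 4 conditions were starved before sampling. Animals were not pooled, but each side combines the libraries of 3 times, so the spread within subjective day or night includes any difference between its times.

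In many animals a circadian clock keeps daily rhythms of transcription going without light. In flies and mammals its activators are the basic helix-loop-helix proteins CLOCK and CYCLE or BMAL1, its repressors include cryptochromes in mammals, and transcription factors with a PAR-type basic leucine zipper (PAR-bZIP) carry its output or feed back on it. Light acts on gene expression directly as well, and constant darkness removes that input. Whole-body RNA mixes all cell types, so fewer cells of a type and less RNA per cell cannot be told apart in these data.

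The deposited values were counts of reads per gene from tag-based libraries, which sample 1 stretch near the 3′ end of a transcript. Total counts were 138366 to 591523 in the libraries of subjective day (median 369792) and 204310 to 512509 in those of subjective night (median 304885). The mean of the log2 totals was higher in subjective day by 0.234 (two-sided permutation test, p = 0.315). After every library was thinned to 100000 counts, 10227 ± 448 genes had a count in subjective day and 10133 ± 382 in subjective night (SD, n = 11 each; permutation test, p = 0.600). DD ZT2 replicate A stood apart. It had the fewest counts of the 22 libraries, and 40.4% of them fell in its 20 most abundant genes, against 12.8% to 21.4% in the other 21. That share also varied with time, at 19.5% to 21.4% in the libraries of ZT14 and ZT18 and 12.8% to 15.9% in those of ZT22. The other libraries of subjective day had 14.3% to 19.2%. Total counts were 204310 to 318709 at ZT18 and 500282 to 512509 at ZT22. Tests on pooled times do not show such differences between times. Calls between subjective day and subjective night that changed without DD ZT2 replicate A are given with and without that library. Other values include it unless stated.

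Only 1 gene passed the test between subjective day and subjective night in constant darkness. Of 9389 genes that averaged at least 3 counts per library, it alone passed a false discovery rate (FDR) of 10%, or 0.0107% of the genes tested, and it was lower by day (edgeR quasi-likelihood test, Benjamini-Hochberg adjustment over all genes). No gene passed in the other direction, where 345 genes (3.67%) had an unadjusted p under 0.05 with a positive log2 difference, against 366 (3.90%) with a negative one, together 7.57% of the genes tested. With DESeq2 in place of edgeR, 23 genes passed, 8 of them higher and 15 lower by day. The 95% interval of the log2 difference had a median reach of 0.61 to either side over all genes tested, and of 0.45 for the 4235 genes that averaged at least 10 counts. For 6183 genes (65.9%) the interval lay between -1 and 1, that is, within a 2-fold difference in either direction.

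The gene that passed, NVE2856, has no annotation in the sources used here. Its level was 9.01 to 57.7 CPM (median 26.3; CPM are counts scaled to a common library total after TMM normalization) in the libraries of subjective day and 41.1 to 111.6 CPM (median 73.3) in those of subjective night. The ranges overlapped, but no library of subjective day exceeded the median of subjective night and all 11 libraries of subjective night exceeded the median of subjective day. NVE2856 was lower by day by a log2 difference of -1.30 ± 0.24 (SE; 95% interval -1.79 to -0.80, edgeR adjusted p = 0.0948). Its mean ran through 35.3 CPM at ZT2, 27.5 at ZT6, 23.7 at ZT10, 68.2 at ZT14, 87.8 at ZT18 and 63.1 at ZT22. The adjusted p lies close to the threshold, and leaving out single libraries moved it between 0.0108 and 0.207. The call was lost without ZT2 replicate C or D, ZT6 replicate A, B or C, ZT10 replicate B or D, ZT14 replicate B, any of the 4 replicates of ZT18, or ZT22 replicate D, with adjusted p-values from 0.104 to 0.207. Without DD ZT2 replicate A it was kept (adjusted p = 0.094). In a single fit over the libraries of all 4 conditions, which estimates the spread from 93 libraries, NVE2856 did not pass (log2 difference -1.29, adjusted p = 0.381), whereas 13 other genes did, 5 of them higher and 8 lower by day.

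**Figure D1:**
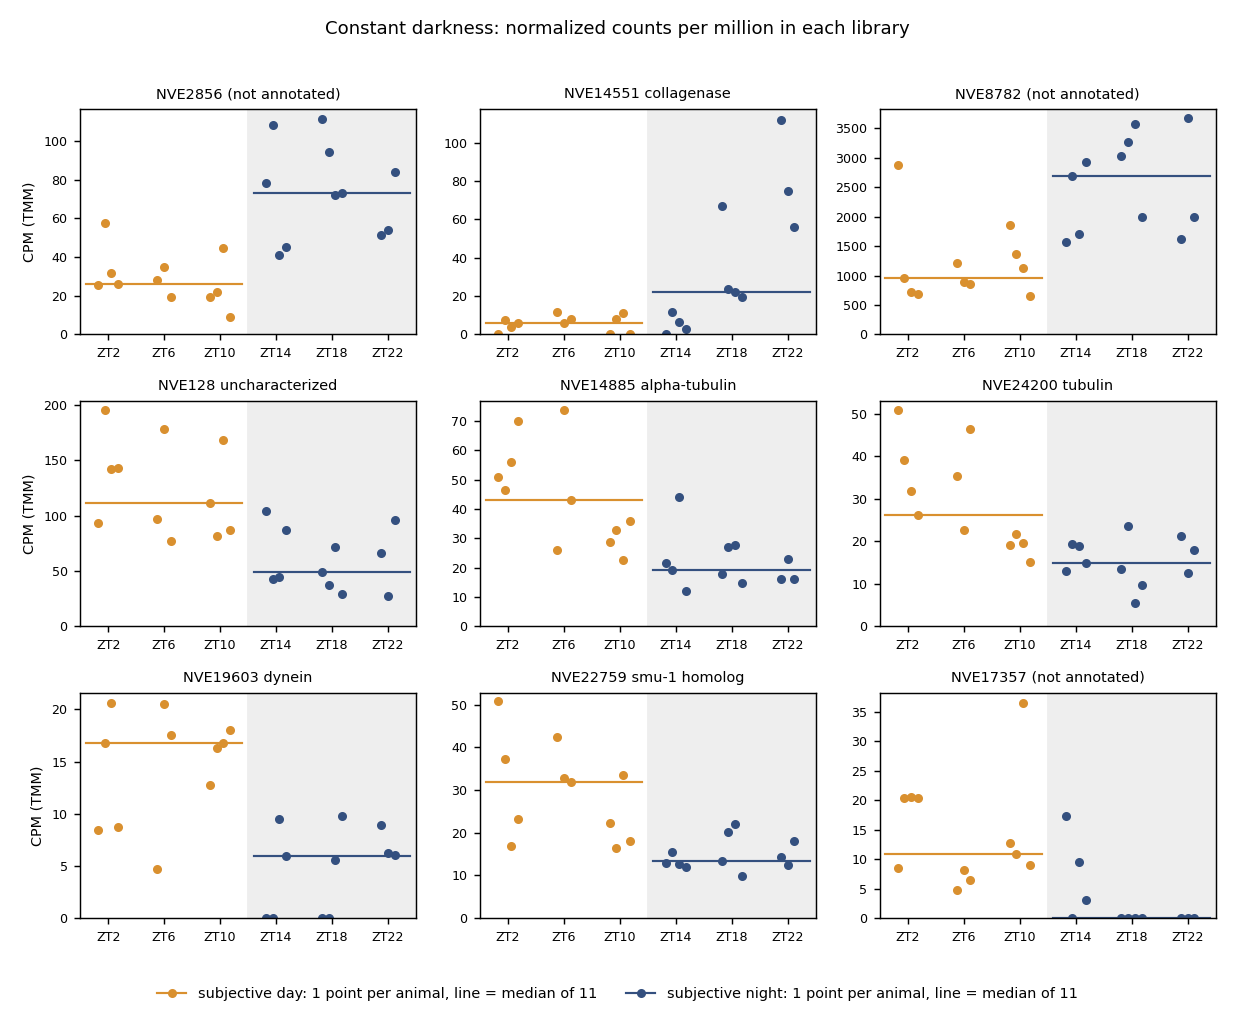
Normalized CPM (vertical axes, linear) of 9 genes in the 22 DD libraries, by Zeitgeber time, with subjective day on the left and subjective night shaded on the right. Each point is 1 animal and each line the median of 11. NVE2856, the gene past 10% FDR, had medians of 26.3 CPM by day and 73.3 CPM by night, and collagenase reached 111.97 CPM only late in subjective night.

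The 11 further genes with a negative difference that came closest to the threshold did not pass it, with adjusted p-values from 0.122 to 0.218. Among them collagenase (NVE14551), a protease that cuts the collagen of the extracellular matrix, had 0 to 11.8 CPM (median 6.15) in subjective day and 0 to 111.97 CPM (median 22.1) in subjective night. Its 4 libraries of ZT14 lay at 0 to 11.6 CPM, inside the range of subjective day, whereas those of ZT18 had 19.5 to 66.96 CPM and those of ZT22 had 56.04 to 111.97 CPM. The log2 difference was -2.58 ± 0.60 (SE, adjusted p = 0.122), and in the fit over all 4 conditions collagenase passed 10% FDR in DD (log2 difference -2.57, adjusted p = 0.0713). It passed in 6 of the 38 alternatives in which it was tested, among them without the libraries of ZT14 (edgeR adjusted p = 0.0013). Of the 22 fits that left out a single library, it passed in 2. NVE8782, without annotation, was the most abundant of the group, at 658 to 2870 CPM (median 952) by day and 1578 to 3681 CPM (median 2697) by night. The value of 2870 CPM came from DD ZT2 replicate A, the library that stood apart, and without it NVE8782 passed the threshold (log2 difference -1.31, adjusted p = 0.00647), against -1.09 and 0.122 with it. It also passed without ZT10 replicate A (adjusted p = 0.0887) or without ZT14 replicate A (adjusted p = 0.0812). NVE7570, annotated as the v-myc transcription factor p64, of a family that regulates cell growth, had a median of 92.7 CPM by day and 122.1 CPM by night (log2 difference -0.68, adjusted p = 0.175). NVE24306, an uncharacterized protein, resembled collagenase in its times, with means of 4.06, 6.67, 2.93 and 5.09 CPM from ZT2 to ZT14 and of 28.0 and 21.1 CPM at ZT18 and ZT22. The other members were NVE12815, NVE23204, NVE22345, NVE20337, NVE13308, NVE5556 and NVE9358, all uncharacterized or without annotation.

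The 12 genes of smallest p with a positive difference had adjusted p-values from 0.122 to 0.247, and none passed. An alpha-tubulin (NVE14885), a subunit of microtubules, had 22.4 to 73.8 CPM (median 43.2) by day and 11.999 to 44.2 CPM (median 19.4) by night, a log2 difference of 1.03 ± 0.25 (SE, adjusted p = 0.155). All 11 libraries of subjective day lay above the median of subjective night. A dynein (NVE19603), a motor that moves along microtubules and drives cilia, had 4.72 to 20.6 CPM (median 16.7) by day and 0 to 9.77 CPM (median 6.00) by night (log2 difference 1.51 ± 0.43, adjusted p = 0.247). NVE22759, the homolog of the splicing regulator smu-1 of *Caenorhabditis elegans*, had 16.3 to 50.8 CPM (median 32.0) by day and 9.77 to 22.1 CPM (median 13.4) by night (log2 difference 0.95 ± 0.23, adjusted p = 0.155). NVE128, an uncharacterized protein with the smallest p of the 12, had 76.8 to 195 CPM (median 111.7) by day and 26.9 to 104.3 CPM (median 49.1) by night (log2 difference 1.07 ± 0.24, adjusted p = 0.122). NVE297, a lysine-rich nucleolar protein, had medians of 123.4 CPM by day and 62.2 CPM by night (log2 difference 0.83, adjusted p = 0.247).

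NVE17357, without annotation, had counts in all 11 libraries of subjective day, at 4.72 to 36.5 CPM, and in 3 of the 11 libraries of subjective night, all of ZT14. The 7 libraries of ZT18 and ZT22 held no count of it, and a count of 0 allows up to 3 counts, or 5.33 to 16.6 CPM in these libraries. The values of ZT6, 4.72 to 8.20 CPM, lie below the upper end of those limits. Over all libraries 64 counts came from subjective day and 8 from subjective night (log2 difference 2.48 ± 0.72, adjusted p = 0.201), and with the 6 times as separate groups NVE17357 passed the threshold (adjusted p = 0.0716), as it did without ZT14 replicate A (adjusted p = 0.0683). NVE20010 owed its place among the 12 to 3 libraries of ZT2, with 42.3, 381 and 187 CPM, and was at 0 in the fourth library of ZT2 and in all 7 libraries of ZT6 and ZT10. The remaining genes, NVE18518, NVE21275, NVE16557, NVE16795 and NVE481, have no annotation here and had log2 differences of 0.81 to 1.53.

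Candidates for the clock, for light input and for the heat shock response were examined next. None of the 13 passed the threshold in DD, and 10 had counts enough to be tested, of which 1 had an unadjusted p under 0.05. *nvClock* (NVE2080), the counterpart of the activator CLOCK, had 19 counts over the 11 libraries of subjective day and 19 over those of subjective night, below the mean count of 3 that testing required, with medians of 3.00 CPM by day and 4.35 CPM by night. The cryptochromes, blue-light photoreceptors or clock repressors in other animals, had close medians by day and night. *nvCry1a* (NVE1138) had medians of 7.44 CPM by day and 8.69 CPM by night (log2 difference -0.14, 95% interval -0.99 to 0.72), and *nvCry1b* (NVE24214) had 23.3 CPM by day and 23.6 CPM by night (0.12, -0.46 to 0.69). *nvTimeout* (NVE19057), a relative of the timeless genes of flies, was the candidate with the smallest p. It had 8.46 to 58.3 CPM (median 28.7) in subjective day and 0 to 39.1 CPM (median 15.0) in subjective night, and 10 of 11 day libraries lay above the night median. Its log2 difference was 0.79 ± 0.32 (SE; 95% interval 0.14 to 1.43), with an unadjusted p of 0.0173 and an adjusted p of 0.577.

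**Figure D2:**
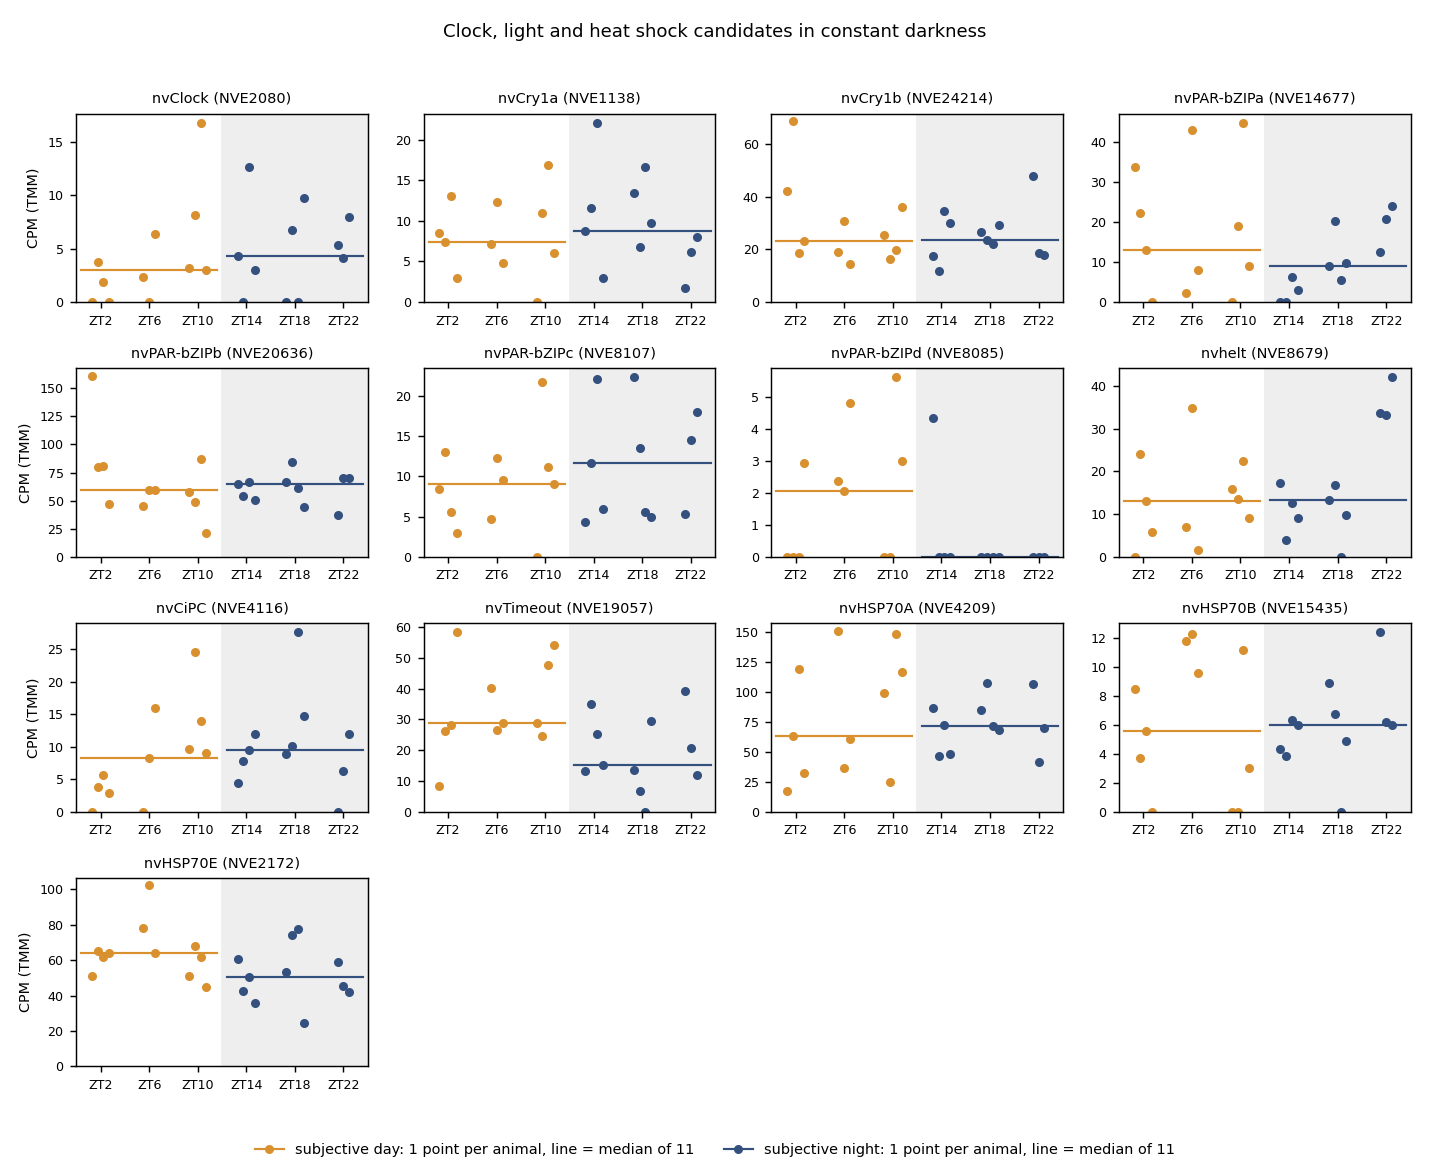
Normalized CPM (vertical axes, linear, each from 0) of the 13 candidate genes in the 22 DD libraries, by Zeitgeber time, with subjective day on the left and subjective night shaded on the right. Each point is 1 animal and each line the median of 11. The ranges of day and night overlap in every panel, and the nearest to a difference is *nvTimeout*, at medians of 28.7 CPM by day and 15.0 CPM by night.

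The PAR-bZIP genes did not pass either. *nvPAR-bZIPa* (NVE14677) ranged from 0 to 44.9 CPM (median 13.1) by day and from 0 to 24.0 CPM (median 8.93) by night, with a log2 difference of 0.61 and a 95% interval of -0.54 to 1.77. The difference was 0.36 without ZT6 replicate B and 0.37 without ZT10 replicate C. *nvPAR-bZIPb* (NVE20636) had medians of 59.2 CPM by day and 65.2 CPM by night, and its interval of -0.37 to 0.55 is the narrowest of these genes. *nvPAR-bZIPc* (NVE8107) had 9.01 CPM by day and 11.6 CPM by night (log2 difference -0.37, interval -1.19 to 0.45). *nvPAR-bZIPd* (NVE8085) was too low to test, with 9 counts over the libraries of subjective day and 1 over those of subjective night. *nvhelt* (NVE8679), which encodes a basic helix-loop-helix factor of the Hairy and Enhancer of split type, had medians of 13.1 CPM by day and 13.4 CPM by night (log2 difference -0.44, interval -1.36 to 0.48). Its 3 libraries of ZT22 averaged 36.3 CPM, against 10.01 to 15.3 CPM at the 5 other times. Without the libraries of ZT22 its log2 difference was 0.39. *nvCiPC* (NVE4116), the counterpart of an inhibitor of CLOCK in mammals, had medians of 8.20 CPM by day and 9.47 CPM by night (log2 difference -0.08, interval -1.10 to 0.93).

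Of the heat shock protein genes of the HSP70 family, which help proteins to fold, *nvHSP70A* (NVE4209) had medians of 63.2 CPM by day and 71.9 CPM by night (log2 difference 0.14, 95% interval -0.47 to 0.75). *nvHSP70E* (NVE2172) had 45.1 to 102.5 CPM (median 63.96) by day and 24.4 to 77.4 CPM (median 50.5) by night (log2 difference 0.36, interval -0.01 to 0.72, unadjusted p = 0.0518). *nvHSP70B* (NVE15435) fell short of the minimum count, with 28 counts by day and 24 by night. Supervillin (NVE11261), a protein that binds actin, had a log2 difference of 0.35 ± 0.17 (unadjusted p = 0.0465, adjusted p = 0.650). Its means were 95.7, 96.4, 96.5 and 96.5 CPM from ZT2 to ZT14, and 59.6 and 64.3 CPM at ZT18 and ZT22. The alpha tubulin NVE2702 had a log2 difference of 0.60 ± 0.17 (unadjusted p = 0.00173, adjusted p = 0.306), at 274 to 545 CPM (median 337) by day and 129.4 to 390 CPM (median 239) by night.

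Differences between the 3 times within subjective day or within subjective night were tested in 1 fit with the 6 times as groups. None of the 9389 genes passed 10% FDR, and 504 (5.37%) had an unadjusted p under 0.05. In this comparison 24 genes passed with DESeq2, and leaving out DD ZT2 replicate A gave 4 calls in edgeR. Among the genes named above, the smallest p belonged to NVE20010 (unadjusted p = 3.1e-05, adjusted p = 0.295), followed by collagenase (unadjusted p = 0.00013, adjusted p = 0.449).

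To describe groups of genes, 18 lists were drawn from the annotations of 1654 genes. Those annotations come from the study's own table of genes that differed by light color or time in these libraries, so the lists are not independent of the samples. No member of any list passed 10% FDR, and the lists are described by unadjusted p-values under 0.05. Of the 1587 annotated genes tested, 783 had a positive difference and 804 a negative one. An unadjusted p under 0.05 came with a positive difference in 6.55% of them and with a negative one in 5.23%, and over all genes tested the median log2 difference was 0.01. The list of microtubules and cilia, which holds tubulins, dyneins and kinesins, had 7 of 31 genes with a positive difference at that level and none with a negative one, and a median of 0.11. These 7 were the alpha-tubulins NVE14885, NVE14884 and NVE2702, the tubulins NVE24200 and NVE24201, the dynein NVE19603 and dynactin 1 (NVE16284), with log2 differences from 0.37 to 1.51. Reads that mapped to more than 1 gene were not counted, so those that fit several tubulin genes are missing from these counts, and the values of tubulins of similar sequence are uncertain. The summed level of the list was 2412 to 3058 CPM (median 2855) in subjective day and 1999 to 3079 CPM (median 2245) in subjective night.

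Histones and chromatin proteins had 4 of 16 genes with a positive difference at an unadjusted p under 0.05 and none with a negative one (median 0.17, and -0.03 among genes that averaged at least 10 counts). Histone H2A (NVE11853), part of the nucleosome, had 13.02 to 120.96 CPM (median 46.3) by day and 3.87 to 96.0 CPM (median 24.4) by night, a log2 difference of 0.96 ± 0.41. The methyltransferase NVE19383, which modifies lysines of histones, had one of 0.40 ± 0.14. Heat shock and folding genes had a positive difference in 18 of 24 cases (median 0.15), but the only one with an unadjusted p under 0.05 was *nvHSP70D* (NVE20412) with a negative difference of -0.31. In mitochondrial respiration 27 of 38 differences were positive (median 0.10). The summed level of that list ran the other way, with medians of 11745 CPM by day and 13043 CPM by night. A NADH dehydrogenase (NVE1775) of the respiratory chain had 169 to 293 CPM (median 218) by day and 116.1 to 213 CPM (median 156) by night (log2 difference 0.47 ± 0.13, adjusted p = 0.273). By contrast, the carrier that exchanges ADP and ATP across the mitochondrial membrane (NVE5385) had a difference of -0.34.

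Ribosomal proteins showed small differences with mostly a negative sign. In 30 of 37 genes the log2 difference was negative (median -0.17), 4 with an unadjusted p under 0.05, and 2 of the 7 others had a positive difference at that level. Their summed level was 38617 to 78934 CPM (median 71837) by day, where DD ZT2 replicate A was lowest, and 57959 to 96020 CPM (median 76815) by night. Collagen and extracellular matrix genes had a negative difference in 19 of 25 cases (median -0.17), 3 of them at an unadjusted p under 0.05. A collagen (NVE1443) had 2.36 to 16.9 CPM (median 8.17) by day and 4.88 to 26.9 CPM (median 16.0) by night (log2 difference -1.16 ± 0.32, adjusted p = 0.247), and the collagen triple helix repeat gene NVE20024 had 218 to 1766 CPM (median 505) by day and 670 to 2868 CPM (median 1017) by night. Collagen VI, alpha (NVE11362) went the other way, at 0.43. In the list of digestive peptidases, which also holds 2 enzymes that act on chitin, 14 of 19 differences were negative (median -0.08). The gut protease trypsin (NVE16978) had -0.46, carboxypeptidase (NVE13249) -0.46, chitinase (NVE11651), which cuts chitin, -0.56 and cathepsin b (NVE9354), a lysosomal protease, 0.56. Trypsin had means of 9590 CPM at ZT14 and ZT18, but 5033 CPM at ZT22, below the 5502 to 6668 CPM of the day times. Chitinase was at 175 CPM at ZT22, and at 87.5 and 81.5 CPM at ZT14 and ZT18, against 69.3 to 81.2 CPM by day. Without DD ZT2 replicate A the adjusted p (edgeR) was 0.127 for cathepsin b and 0.221 for trypsin, against 0.589 and 0.577 with it.

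**Figure D3:**
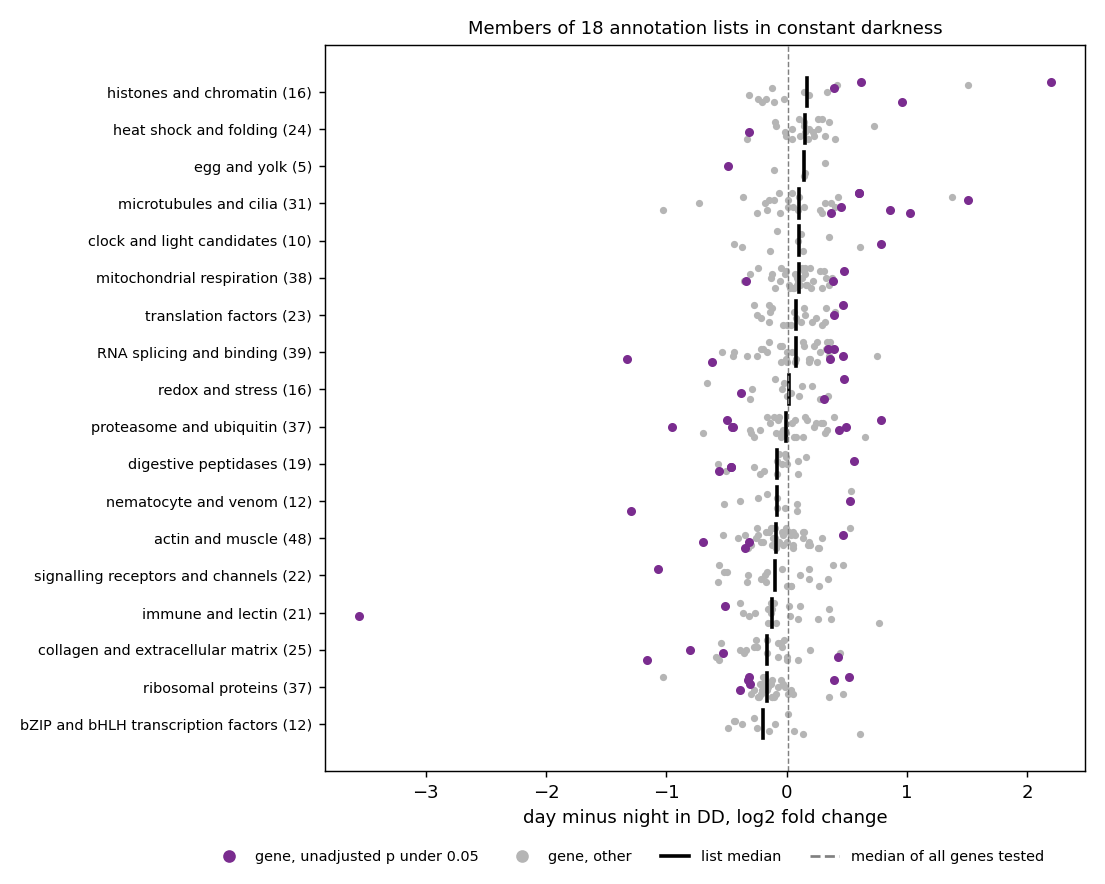
Log2 difference of subjective day minus subjective night in DD (horizontal axis) for the members of 18 annotation lists (rows, with the number tested). Each point is 1 gene, dark where the unadjusted p is under 0.05, black bars are list medians and the dashed line is the median of all genes tested, 0.01. Microtubules and cilia hold 7 dark points, all to the right of 0.

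The remaining lists had medians between -0.20 and 0.15. The list of transcription factors of the bZIP and bHLH type, the candidates among them, had 8 negative differences of 12 (median -0.20). None of these 12 had an unadjusted p under 0.05. The list was drawn by words in the annotations and leaves out the v-myc factor NVE7570 (log2 difference -0.68, edgeR unadjusted p = 0.00028). The C/EBP alpha gene NVE23143, the most abundant of the list, had 5160 to 7098 CPM (median 6026) by day and 4642 to 9320 CPM (median 7193) by night (log2 difference -0.24, unadjusted p = 0.0503). The gene annotated as neuronal PAS domain protein 2 (NVE7690), a CLOCK-like activator in mammals, had medians of 19.6 CPM by day and 26.0 CPM by night (log2 difference -0.48, unadjusted p = 0.0780). Its mean was 45.7 CPM at ZT14, but 24.7 and 24.0 CPM at ZT18 and ZT22, within the 12.8 to 29.9 CPM of the day times. Proteasome and ubiquitin genes split into 3 positive and 4 negative differences of 37 at an unadjusted p under 0.05 (median 0.00), and actin and muscle genes into 1 and 3 of 48 (median -0.09). Translation factors had 2 positive ones of 23 (median 0.08), splicing and RNA-binding genes 4 positive and 2 negative ones of 39 (median 0.08), and redox and stress genes 2 positive and 1 negative one of 16 (median 0.02). The list of nematocyte (stinging cell) and venom genes had 1 of each sign among 12 (median -0.08). Drawn by words in the annotations, it also holds a galaxin precursor and a mucin-like protein, and its members need not be specific to stinging cells. Immune and lectin genes had 2 negative ones of 21 (median -0.12), signalling receptors and channels 1 negative one of 22 (median -0.10), and egg and yolk genes 1 negative one of 5 (median 0.15).

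Whether day and night differed less in DD than under a light:dark cycle was tested as the difference of the 2 differences, in 1 fit over 93 libraries (22 of DD, 24 of blue, 24 of green and 23 of red light) and 9597 genes. The 3 comparisons share the DD libraries, and CPM from this fit differ slightly from those above because all 93 libraries were scaled together. Against blue light 3 genes differed at 10% FDR (0.0313% of the genes tested, with 4.56% at an unadjusted p under 0.05). Against green light and against red light no gene did, with 5.12% and 4.85% at an unadjusted p under 0.05. With DESeq2 the counts were 3, 7 and 0 for blue, green and red light.

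Of these 3 genes *nvhelt* (NVE8679) had the largest estimate. In DD its level was 0 to 35.9 CPM (median 13.7) by day and 0 to 42.7 CPM (median 13.7) by night, whereas in blue light it was 59.6 to 209 CPM (median 139.3) by day and 4.31 to 70.1 CPM (median 20.1) by night. Every day library in blue light lay above every DD library. Its log2 difference of day minus night was -0.45 in DD and 2.63 in blue light, and DD minus blue was -3.08 ± 0.52 (SE, adjusted p = 0.000243). The hepatic leukemia factor gene NVE5408, a PAR-bZIP factor, had 29.9 to 150 CPM (median 102.8) by day and 45.3 to 155 CPM (median 75.5) by night in DD, and 248 to 664 CPM (median 424) by day and 38.8 to 214 CPM (median 100.97) by night in blue light. The difference was 0.07 in DD and 1.94 in blue light, and DD minus blue was -1.87 ± 0.34 (adjusted p = 0.00126). NVE5408 and *nvPAR-bZIPa* are of the same family, and reads that mapped to more than 1 gene were not counted.

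*nvPAR-bZIPc* (NVE8107) ran the opposite way. In DD it had 0 to 22.2 CPM (median 9.16) by day and 4.44 to 22.9 CPM (median 12.05) by night, and in blue light 0 to 27.6 CPM (median 6.05) by day and 12.1 to 144 CPM (median 45.5) by night. Day minus night was -0.36 in DD and -2.92 in blue light, and DD minus blue was 2.56 ± 0.60 (adjusted p = 0.0889). That call was lost with RLE normalization (adjusted p = 0.106), and with the leaving out of ZT2 replicate A or B, ZT6 replicate B or C, ZT10 replicate B, C or D, ZT14 replicate A, B or D, ZT18 replicate B, C or D, or ZT22 replicate A or B of DD (adjusted p from 0.104 to 0.314). The calls of *nvhelt* and NVE5408 against blue light held without any single DD library, but *nvhelt* lost its call after thinning to 100000 counts (adjusted p = 0.235), with a log2 value of -2.81 or further from 0 under every setting run.

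**Figure D4:**
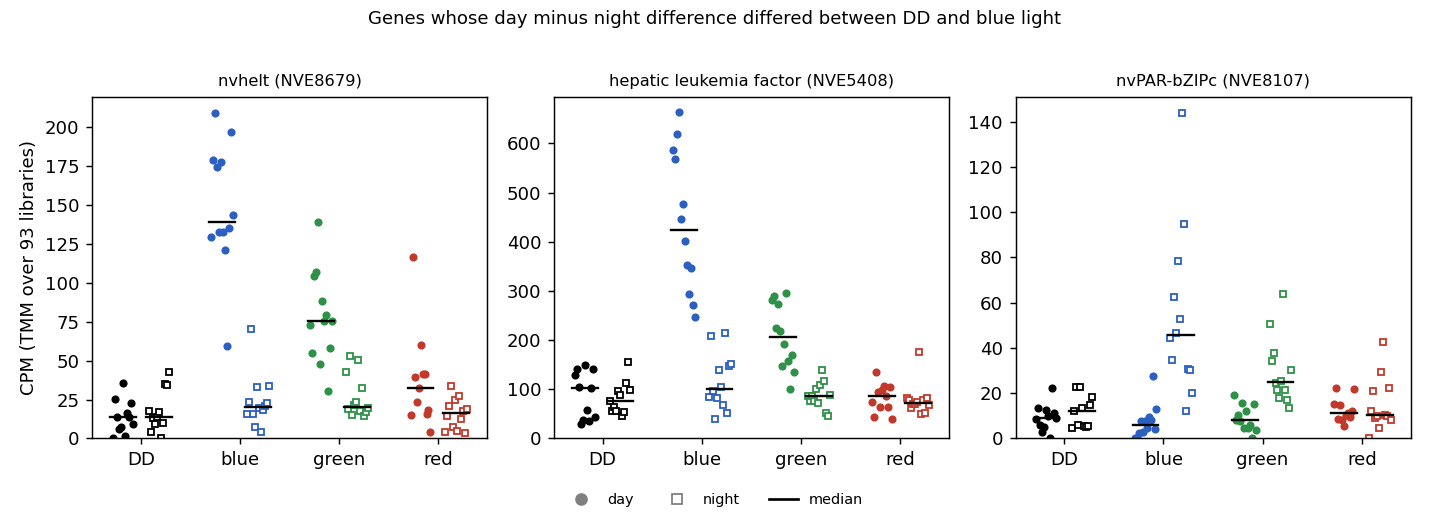
Normalized CPM (vertical axes, linear) of the 3 genes whose day minus night difference differed between DD and blue light, in 93 libraries by condition, with day as filled circles, night as open squares and black bars for medians. In DD the medians of *nvhelt* were 13.7 CPM by day and by night, against 139.3 CPM by day and 20.1 CPM by night in blue light.

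Against green and red light the same genes gave smaller estimates that did not pass. DD minus green was -2.001 for *nvhelt* (adjusted p = 0.324, and 0.0847 in DESeq2), -1.20 for NVE5408 (adjusted p = 0.511) and 1.19 for *nvPAR-bZIPc* (adjusted p = 0.914). DD minus red was -1.55 for *nvhelt* (adjusted p = 0.859), -0.05 for NVE5408 and -0.14 for *nvPAR-bZIPc*. For *nvPAR-bZIPa* (NVE14677), day minus night was 0.59 in DD and 2.62, 2.07 and 1.58 in blue, green and red light, where it passed 10% FDR in each. DD minus blue was -2.03 ± 0.58 (adjusted p = 0.575), so a difference between the conditions was not shown for it. *nvClock* (NVE2080) had a day minus night difference of -0.26 in DD and 1.94 in blue light, and DD minus blue was -2.19 ± 0.75 (adjusted p = 0.866).

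**Figure D5:**
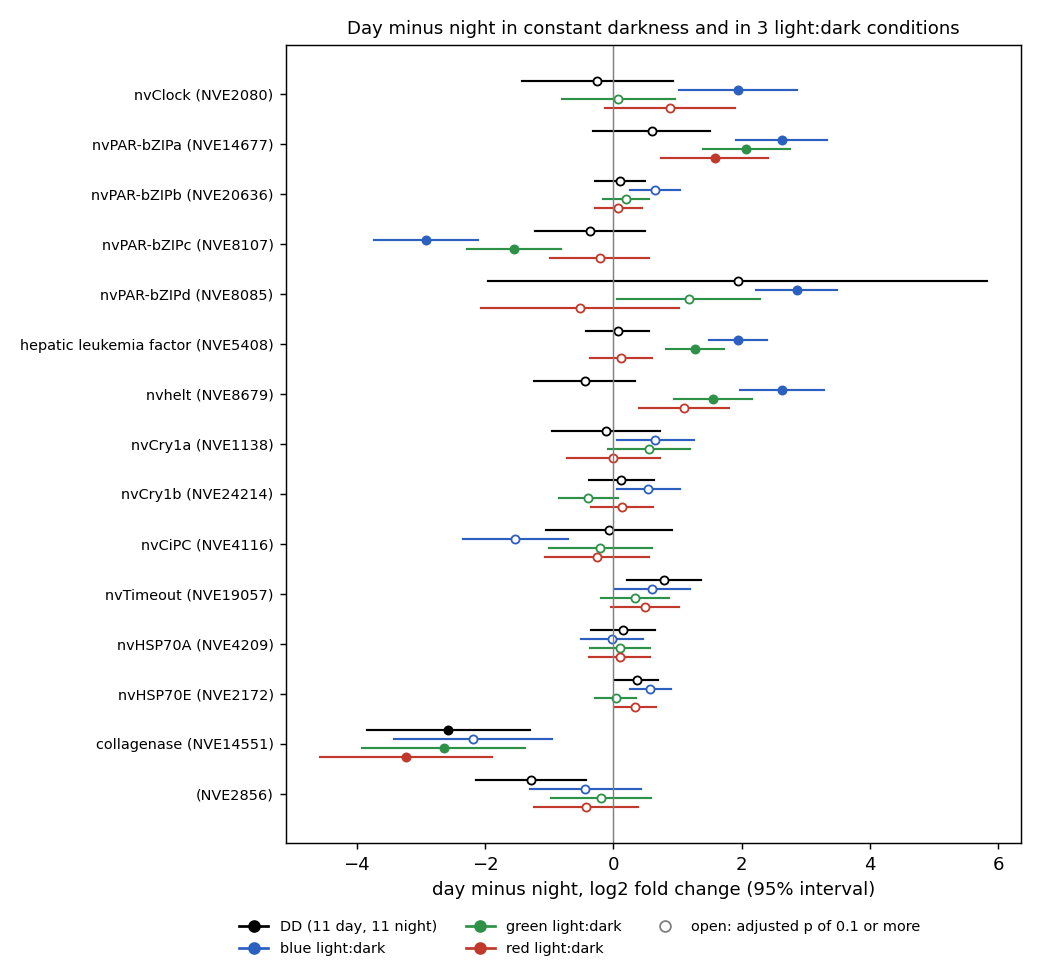
Log2 difference of day minus night with its 95% interval (horizontal axis) for 15 genes in DD, blue, green and red light, from 1 fit over 93 libraries. Filled points passed 10% FDR. Collagenase is the only gene of the plot with a filled point in DD, at -2.57, where the fit on DD alone gave an adjusted p of 0.122.

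Collagenase (NVE14551) had a negative difference in all 4 conditions. Day minus night was -2.57 in DD, -2.19 in blue light (adjusted p = 0.175), -2.65 in green light (adjusted p = 0.0127) and -3.24 in red light (adjusted p = 0.00143). The differences between conditions were -0.39, 0.07 and 0.66 for DD minus blue, green and red, with 95% intervals of -2.16 to 1.38, -1.72 to 1.87 and -1.18 to 2.51, which leave room for more than a 2-fold difference either way. NVE2856, the gene that passed in DD, had day minus night differences of -0.44, -0.20 and -0.42 in blue, green and red light. Each had an interval that includes 0. For NVE2856, DD minus blue, green and red were -0.85, -1.09 and -0.86 (edgeR adjusted p = 0.9999, 0.983 and 0.9999). A difference between DD and any color was thus not shown for NVE2856. The gene was chosen for its difference in DD, which enters each of these comparisons. In the libraries of blue, green and red light, which had no part in choosing them, 23 of the 24 genes closest to the threshold in DD could be tested. The sign in DD recurred in 15 of 23 in blue light, 18 in green light and 19 in red light. The share of all genes with the same sign was not counted. Over 4332 genes that averaged at least 10 counts, the differences in DD correlated with those in blue, green and red light (Spearman rho 0.25, 0.27 and 0.31). Some agreement between conditions thus extends beyond the 24 genes, and whether it is stronger among them was not tested. With an unadjusted p under 0.05 as well, the sign in DD recurred in 5, 2 and 5 genes, beside 6.87%, 7.19% and 9.40% of all genes with such a p in either direction. Collagenase and NVE12815 did so under each color, and NVE12815 had log2 differences of -0.51, -1.01 and -0.50 in blue, green and red light (adjusted p = 0.0159 in green light). The alpha-tubulin NVE14885 did so in blue light at 0.75 and in red light at 0.54, the dynein NVE19603 at 1.06 and 0.94, and NVE24306 at -1.52 and -1.08.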

How the data were processed

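The authors prepared tag-based libraries, removed PCR duplicates, trimmed and filtered the reads, used Bowtie2 to map them to the Vienna transcriptome, kept the reads that mapped to 1 gene, and deposited raw counts of reads per gene for 23927 genes in 96 libraries. The deposited counts are whole numbers without normalization. All columns were matched to samples by label (0 unmatched). Total counts of the 22 DD libraries were 138366 to 591523, and a count of 0 allows up to 3 counts, for counting error only.

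Libraries of at least 100000 counts were kept, and genes that averaged at least 3 counts in them. Scaling was by TMM. Differences were tested two-sided by the quasi-likelihood F test of edgeR (version 4.0.16, on limma 3.58.1 and R 4.3.3). P-values were adjusted by Benjamini-Hochberg over all genes, at 10% FDR. Standard errors are Wald errors from that fit, and intervals cover 95%. CPM used TMM-scaled totals. Single values were compared by two-sided tests with 100000 permutations. The tests were also run on simulated counts, in which no library stood apart in composition and pooled times did not differ. That check thus does not cover these features of the data. The replicates are separate animals.

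The genes named were all candidates, the 12 of smallest p in each direction, genes past 10% FDR in DD or in a comparison with a color, collagenase, supervillin and NVE2702, and the 3 annotated members of smallest p in each list. Other list members were named after their values were seen. The members, lists and comparisons were chosen with earlier results of these data known. Annotations were taken from the study's supplementary table, and its columns of fold changes and p-values were not used. Alternatives were DESeq2 1.42.0, RLE normalization, other filters, robust dispersions, the 6 times as groups, 1 fit over all conditions, a replicate block, thinning to 100000 counts, keeping the small libraries, and leaving out each library or time. Figures were drawn with matplotlib 3.10.9.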

Additional observations from a re-analysis of the deposited data

Results flagged for a closer look

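Gaps within the 4 libraries of a time were examined for 75 groups of values, and in 5 of them the gap between 1 library and the other 3 took up most of the range. Chance gives such a gap in about 1 in 20 groups. DD ZT14 replicate C had 10758 genes with a count in 100000 thinned counts, against 9878 to 9949 in the other libraries of ZT14. DD ZT2 replicate A had 40.4% of its counts in its 20 most abundant genes, against 14.3% to 16.8% in the others of ZT2. *nvPAR-bZIPd* (NVE8085) had 2.92 CPM in DD ZT2 replicate D and 4.35 CPM in DD ZT14 replicate A, and 0 in the other 3 libraries of each time. Each of these values is 1 count, and a count of 0 allows up to 3, so these libraries cannot be told apart from the others of their time. Collagenase (NVE14551) had 66.96 CPM in DD ZT18 replicate A, against 19.5 to 23.6 CPM in the others of ZT18.

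The difference between day and night itself differed between DD and blue light for 3 genes (edgeR quasi-likelihood test of the difference). The log2 values of DD minus blue were -3.08 for *nvhelt* (NVE8679), -1.87 for NVE5408 and 2.56 for *nvPAR-bZIPc* (NVE8107).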

How the results depend on the processing

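The count of 1 gene past 10% FDR between subjective day and night moved with most choices. It was 4 with no filter on low counts, 7 with a mean count of at least 10, 23 with DESeq2, 2 with the 6 times as groups, 0 after thinning to 100000 counts and 13 in 1 fit over the 4 conditions. Without the libraries of ZT2, ZT6, ZT10, ZT14, ZT18 and ZT22 it was 3, 0, 0, 9, 0 and 0, and without single libraries 0 to 5, with 2 genes without ZT2 replicate A or ZT14 replicate D, 4 without ZT10 replicate A and 5 without ZT14 replicate A. It stayed at 1 with RLE normalization, robust dispersions, a filter over the 4 conditions, and the small libraries kept. NVE2856 had a negative difference under every alternative run. Between times within day or night the count of 0 became 1 with all 24 DD libraries, 350 with no filter, 24 with DESeq2 and 0 to 4 without single libraries. Against blue light the 3 calls became 1 after thinning, where *nvhelt* lost its call and *nvPAR-bZIPc* fell below the minimum count. *nvPAR-bZIPc* was not tested with a mean count of at least 10 either. Without single libraries the calls against blue light were 2 to 3. Against green light the 0 became 7 with DESeq2 and 0 to 2 without single libraries (2 without ZT6 replicate B), and against red light 0 to 1 (1 without ZT10 replicate D). With DD ZT6 replicate D kept, the log2 difference in total counts turned to -0.0891 (permutation p = 0.883).

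The replicate letters did not pair the samples: over 50 pairs with the same letter the correlation of deviations was -0.245 to 0.281 (median 0.00), and 4 of 22 libraries correlated best with their own letter. With a replicate block the counts were 0 between day and night (NVE2856 adjusted p = 0.118), 1 within day or night, and 1 against red light, and *nvPAR-bZIPc* lost its call against blue light (adjusted p = 0.124).

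Some log2 differences changed sign, most of them near 0. NVE17892, at -0.52 in the 22 libraries, was at 3.1 with DD ZT6 replicate D or all 24 libraries kept. NVE5408 in DD was at -0.082 with the replicate block, -0.017 after thinning, and -0.051, -0.13 and -0.046 without ZT2, ZT14 and ZT18. *nvHSP70A* (NVE4209) was at -0.022 after thinning and -0.036 without ZT10, and *nvHSP70E* (NVE2172) at -0.0037 after thinning. Without ZT2, *nvCry1b* (NVE24214) was at -0.19, *nvPAR-bZIPb* (NVE20636) at -0.17, *nvCiPC* (NVE4116) at 0.29 and NVE5716 at -0.0496. *nvCiPC* was at 0.28 without ZT18, *nvCry1a* (NVE1138) at 0.064 without ZT14 and *nvhelt* (NVE8679) at 0.39 without ZT22. Without single libraries, *nvCry1b* ranged from -0.15 to 0.27, *nvPAR-bZIPb* from -0.049 to 0.18, *nvCiPC* from -0.33 to 0.11, NVE5408 from -0.046 to 0.19 in DD and from -0.16 to 0.090 for DD minus red, and collagenase (NVE14551) from -0.068 to 0.45 for DD minus green. The cause was not tested. The medians of the 18 lists moved by less than the spread between libraries, and 10 of them took the other sign under at least 1 setting.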

Other observations

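Several genes of the immune, venom and signalling lists had differences in DD that no paragraph has described, all with adjusted p-values above 0.45 (edgeR). Hemocytin (NVE12713), a large secreted protein of insect immune cells, had a median of 0 CPM by day and by night, with 7 day and 8 night libraries at 0. Its log2 difference of -3.55 ± 1.36 (unadjusted p = 0.00570) rests on DD ZT18 replicate A, at 469 CPM, and without that library it fell below the minimum count and was not tested. TNFAIP3 interacting protein 1 (NVE19849), a regulator of inflammatory signalling in mammals, had a difference of -0.52 ± 0.16. In the nematocyte list the venom allergen-like gene *nvNEP-16a* (NVE8847) had a positive difference of 0.53 and galaxin precursor (NVE2195) a negative one of -1.30 ± 0.60, which was -0.73 without DD ZT18 replicate B, at 4865 CPM against a night median of 562 CPM. Vitellogenin precursor (NVE6616), the yolk protein, had a difference of -0.48 ± 0.23, and a phosphodiesterase (NVE17901), of the enzymes that break down cyclic nucleotides, -1.07 ± 0.48. These genes were chosen after their values were seen.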
